A study of Mus musculus with 97 samples.

Results

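3 RNAs, listed in the deposited tables as AC157822.1, 7SK and RNase_MRP, held 21.9% to 29.1% of the RNA-seq counts and 77.5% to 84.5% of the TPM (a per-length transcript level scaled to the same sum in every library) of each of 18 libraries of sorted mouse embryonic stem (ES) cells. They were selected on these measured shares: the largest 3 shares of counts and of TPM chose them, so their levels are given as a description and without a test. Every Ensembl entry with one of the 3 symbols was taken and summed per symbol, which gave 334 of the 37620 entries of the count table and 3 of 37289 features after summing.

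7SK is a small nuclear RNA made by RNA polymerase III. With the proteins Larp7, Mepce and Hexim1 or Hexim2 it holds the kinase P-TEFb (Cdk9 with a T-type cyclin) inactive, and release of P-TEFb lets RNA polymerase II move from pausing into elongation. RNase_MRP is the symbol of the RNA of ribonuclease MRP, a ribonucleoprotein that cuts the precursor of ribosomal RNA and shares most of its proteins with RNase P, the enzyme that trims the 5′ ends of transfer RNA precursors. AC157822.1 has no gene name in the reference tables used, and no role is given to it here.

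The series followed transcription factor binding, chromatin accessibility and nucleosomes of mouse ES cells in interphase and mitosis, and asked by RNA-seq what loss of Sox2 does along the cell cycle. RNA was measured in 18 of its 97 libraries. All 18 came from a GFP Sox2-AID ES line and were made from ribosome-depleted total RNA. AID stands for auxin-inducible degron, a peptide that marks its fusion partner for degradation once auxin is added. The cells grew on gelatine with serum and LIF, and auxin was given at 0.5 mM for 3 h, or not at all in the untreated groups. Hoechst, a DNA dye, was added at 20 µM for the last 20 min, and cells were sorted on Hoechst and GFP into early G1, late G1 and G2. That made 6 groups of 3 libraries: early G1, late G1 and G2, each untreated or with auxin. What GFP reports, how many clones the line stands for and whether the 3 libraries of a group were separate cultures are not given in the sources used here, so p-values measure the spread between these libraries, which may be technical.

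Library totals ran from 24841963 to 37587322 counts. All 10 ES cell markers looked up were present, with a summed level of 3686 to 4217 CPM (counts relative to library size), and the 10 fibroblast or feeder markers summed to 4.92 to 10.3 CPM. For the tests and for the CPM values given further below, the library size was scaled by TMM. Sox2 mRNA was not lower with auxin on the count scale (log2 fold change averaged over phases 0.089 ± 0.081 SE, edgeR adjusted p = 0.527), and because the degron acts on the protein, the mRNA does not check the depletion.

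Behind the symbol 7SK stand 331 Ensembl entries. One of them, ENSMUSG00000065037, which the reference tables name Rn7sk, held 99.99% of the summed 7SK counts, 94 others held 2248 counts in all 18 libraries together, and 236 were at 0. RNase_MRP has 2 entries, of which ENSMUSG00000088088 (Rmrp in the reference tables) held all counts and the other was at 0. AC157822.1 has a single entry, ENSMUSG00000092773. The 7SK sum therefore followed 1 gene, although how reads that match several of the 331 copies were divided is not given in the sources used here.

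AC157822.1 took the largest share of the counts. In untreated early G1 cells it held 20.5%, 17.6% and 16.6% of the counts of replicates 1, 2 and 3, in untreated late G1 18.6%, 17.2% and 16.4%, and in untreated G2 18.8%, 17.6% and 17.6%. With auxin the early G1 libraries had 18.9%, 17.7% and 21.2%, the late G1 libraries 20.2%, 17.5% and 20.0%, and the G2 libraries 20.3%, 15.8% and 20.3%. The highest and the lowest of the 18 libraries were both auxin libraries, and the untreated and auxin groups overlapped in every phase.

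7SK varied less between libraries. Its share of counts was 4.64%, 4.31% and 4.17% in replicates 1, 2 and 3 of untreated early G1, 4.30%, 3.99% and 3.93% for late G1, and 4.38%, 3.77% and 3.71% for G2. With auxin the shares became 4.75%, 4.12% and 4.44% for early G1, 4.76%, 4.05% and 3.98% for late G1, and 4.19%, 3.71% and 3.99% for G2. Replicate 1 was the highest of its group in all 6 groups, and the groups overlapped in every phase.

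RNase_MRP showed the widest relative spread of the 3. Untreated early G1 libraries had 3.23%, 2.82% and 4.20% of counts, untreated late G1 libraries 2.66%, 2.89% and 4.00%, and untreated G2 libraries 2.38%, 2.37% and 3.54%. Under auxin, early G1 libraries had 2.65%, 2.74% and 3.48%, late G1 libraries 3.15%, 2.77% and 3.39%, and G2 libraries 2.74%, 2.34% and 2.96%. Replicate 3 was the highest in each of the 6 groups, and the 3 untreated libraries numbered 3 were the 3 highest of all 18.

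**Figure D1:**
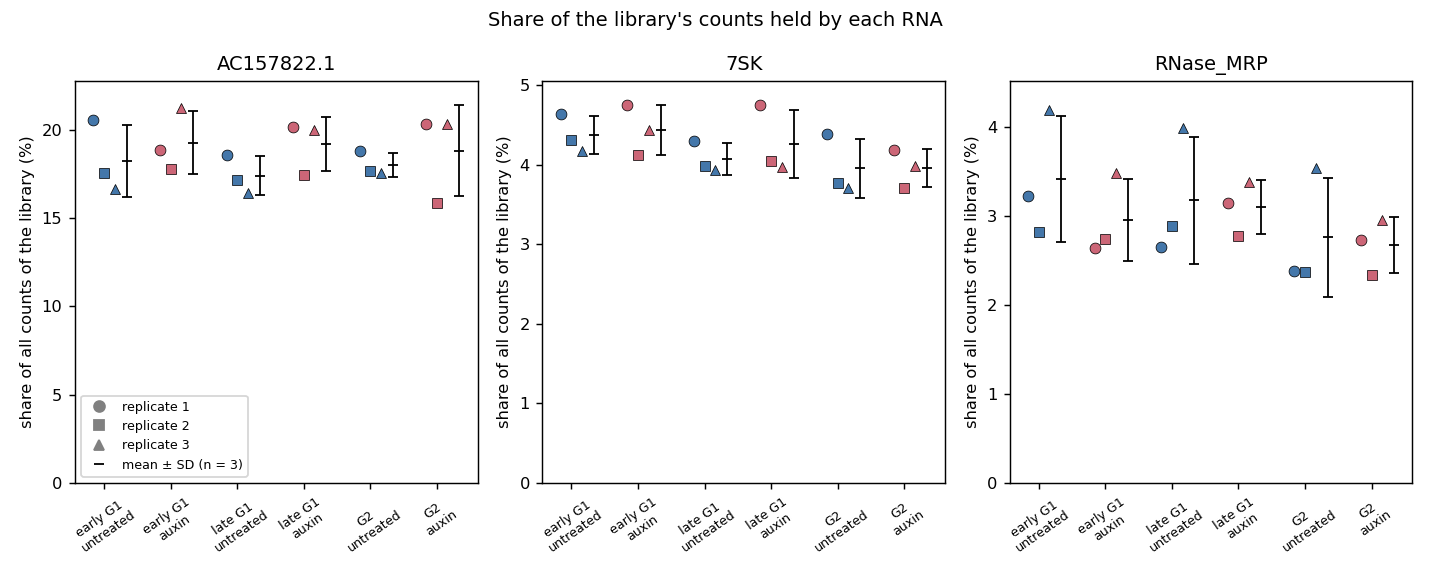
Share of each library's total counts (%, vertical axis) held by AC157822.1, 7SK and RNase_MRP in the 6 groups, with one point per library (marker shape: replicate number; blue: untreated; red: auxin) and the group mean with SD beside it. AC157822.1 lies between 15.8% and 21.2%, 7SK between 3.71% and 4.76%, and the 3 untreated libraries numbered 3 carry the highest RNase_MRP shares, up to 4.20%.

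Ratios within a library do not depend on scaling. RNase_MRP gave 0.70, 0.65 and 1.01 counts per 7SK count in untreated early G1, 0.62, 0.73 and 1.02 in untreated late G1, and 0.54, 0.63 and 0.95 in untreated G2. With auxin, early G1 gave 0.56, 0.66 and 0.79, late G1 0.66, 0.68 and 0.85, and G2 0.65, 0.63 and 0.74. The ratio was highest in replicate 3 of each group, and the 3 untreated libraries numbered 3 stood above all others. AC157822.1 gave 3.97 to 5.10 counts per 7SK count over the 18 libraries, a narrower relative range than the 0.54 to 1.02 of RNase_MRP per 7SK. Across the 18 libraries the log2 CPM of AC157822.1 and 7SK had a Pearson r of 0.80 (0.83 after removing group means), while r was 0.17 between AC157822.1 and RNase_MRP and 0.081 between 7SK and RNase_MRP. These correlations are descriptions over libraries that share groups, replicate numbers and one scaling.

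The next largest share of reads was that of AC099934.1 (ENSMUSG00000092665, without a name in the reference tables). It held 1.21% of counts on average and ranged from 0.149% in untreated G2 replicate 1 to 2.60% in auxin-treated early G1 replicate 1, where RNase_MRP held 2.65%. Eef1a1, a translation elongation factor, held 1.07%, and Malat1, a long nuclear non-coding RNA, 0.506%. They were followed by the chaperone Hsp90aa1 with 0.496%, Ptma with 0.279%, the mitochondrially encoded mt-Co1 with 0.263% and Pkm2, a glycolytic enzyme, with 0.252%. Together the 3 RNAs held 21.9% (G2 with auxin, replicate 2) to 29.1% (early G1 with auxin, replicate 3) of the counts.

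TPM divides reads by length, and on that per-length scale the order of the 3 changed. AC157822.1 reached a mean of 57.3% of TPM (50.5% to 62.4% over the 18 libraries), RNase_MRP 14.8% (12.3% to 19.8%) and 7SK 8.45% (7.51% to 9.39%), so RNase_MRP stood above 7SK on TPM, without overlap of their ranges. In counts RNase_MRP was below 7SK in 16 of 18 libraries and slightly above it in the other 2, untreated early and late G1 replicate 3. The next entry was again AC099934.1 with a mean of 3.76%, followed by the small nucleolar RNAs Snora73a (1.29%), Snora73b (0.644%) and an entry named SNORA73 (0.470%), by entries named U2 (0.351%) and U3 (0.262%), and by the Cajal body RNA Scarna6 (0.307%). A count of these RNAs carried far more TPM than a count of an ordinary gene. Counts per TPM were 2.99% to 3.59% of the median of 1627 well covered entries for AC157822.1, 4.66% to 5.37% for 7SK and 1.82% to 2.34% for RNase_MRP.

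Together the 3 RNAs made up 77.5% to 84.5% of the TPM of a library. All other entries shared the rest. That remainder was 15.9%, 21.4% and 21.4% of TPM in replicates 1, 2 and 3 of untreated early G1, 16.1%, 22.5% and 22.1% in untreated late G1, and 15.5%, 20.8% and 20.7% in untreated G2. Under auxin, early G1 libraries kept 21.5%, 20.5% and 16.6%, late G1 libraries 19.2%, 21.4% and 18.4%, and G2 libraries 18.6%, 20.2% and 17.3%. Replicate 1 was the lowest in each untreated group and replicate 3 the lowest in each auxin group, and the groups overlapped in every phase.

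The largest remainder was 1.45 times the smallest, or 0.54 on the log2 scale, while the remainder of counts (70.9% to 78.1%) differed by 1.10 times. A gene with the same share of the remaining RNA could thus differ 1.45-fold in deposited TPM between 2 libraries. Taking the 3 RNAs out and scaling back to the full sum multiplied the TPM of every other entry by 4.45 (untreated late G1 replicate 2) to 6.47 (untreated G2 replicate 1). The difference of the remainder by treatment was small beside its spread: auxin minus untreated on the log2 scale was 0.0041 for early G1, −0.027 for late G1, −0.014 for G2 and −0.012 on average, against an SD within groups of 0.21. Without the 3 untreated libraries numbered 3, left out after seeing the data, it was 0.075, 0.044, 0.054 and 0.058 in the same order, also within that SD and with the opposite sign in late G1, G2 and the average.

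**Figure D2:**
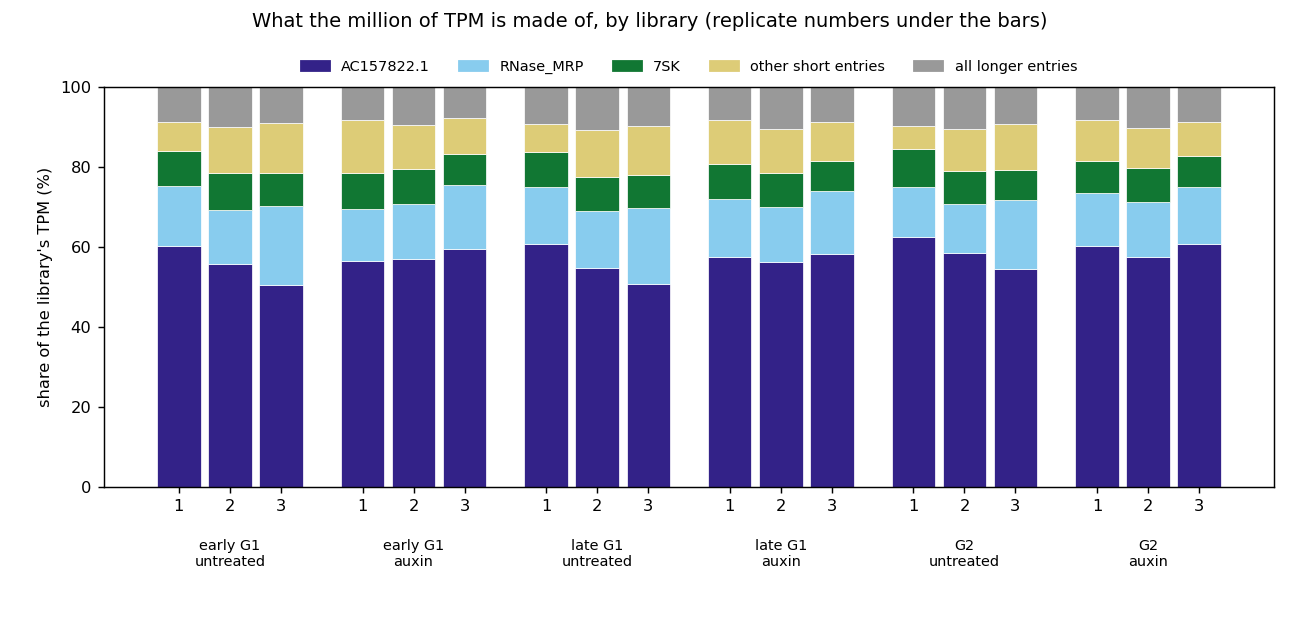
Composition of each library's TPM (%, stacked bars to 100) by AC157822.1, RNase_MRP, 7SK, other short entries (counts per TPM under 10% of the median well covered entry) and all longer entries, for replicates 1 to 3 of the 6 groups. The 3 RNAs fill 77.5% to 84.5% of every bar, and all longer entries only 7.55% to 10.7%.

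Other short entries held more of the remaining TPM than all longer entries did in 14 of 18 libraries. 1097 further entries with counts per TPM under 10% of the median well covered entry held 5.79% to 13.3% of TPM but 1.08% to 3.53% of counts. All longer entries held 7.55% to 10.7% of TPM and 68.9% to 75.9% of counts. The other short entries were lowest in replicate 1 of each untreated group (early G1 7.16%, late G1 6.84%, G2 5.79%). AC099934.1 is itself one of these entries, so its level is part of this total and not a second observation. In these libraries it held 0.357%, 0.477% and 0.149% of counts, the lowest 3 of the 18. Its share of TPM there was 1.047%, 1.558% and 0.493%, against 2.987% to 4.687% in untreated replicates 2 and 3.

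Families of other small RNAs did not share this abundance in the tables. The RNA of RNase P, Rpph1 (ENSMUSG00000092837, listed as AC027184.1), held 0.0631% of counts and 0.147% of TPM. A further 18 entries named RNaseP_nuc held 0.00129% of counts and 0.00445% of TPM. The 47 entries of U3, a guide RNA of ribosomal RNA processing, held 0.0478% of counts and 1.19% of TPM, the 51 entries of the spliceosomal U2 0.00945% and 0.707%, and Terc, the telomerase RNA, 0.0135% of counts. U4, U5, U6, U7, U8, U11, Y_RNA, Vault, 5S_rRNA and 5_8S_rRNA were listed at 0 in all libraries, and U1 and U12 held a few counts. As cells use most of these RNAs, a 0 here is a value of the table and not a measured absence. No entry carried the symbols Rn7s1, Rn7s2, 7SLRNA, Metazoa_SRP or SRP_euk_arch searched for the signal recognition particle RNA.

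The effect of auxin on the 3 RNAs was tested with edgeR (quasi-likelihood F test on TMM-scaled counts, adjusted over all 16008 features tested). None of the 3 passed an adjusted p of 0.05 in any phase. Over all features, 0.106% passed for early G1, 1.02% for late G1, 0.668% for G2 and 5.69% for the average over phases. The members' groups overlapped in CPM in every phase, where 11.3% (early G1), 13.7% (late G1) and 11% (G2) of all features had groups that did not overlap. In these bulk samples less RNA per cell and fewer cells of a kind cannot be told apart.

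AC157822.1 was measured at 203799, 166075 and 149629 CPM in untreated and 189093, 168577 and 214274 CPM in auxin-treated early G1. In late G1 it stood at 191114, 172782 and 159351 CPM without and 218341, 177709 and 210497 CPM with auxin, and in G2 at 189695, 176381 and 168687 CPM without and 216046, 153400 and 216505 CPM with auxin. The auxin library was the higher one in 7 of 9 pairs of equal phase and replicate number, and every phase overlapped. The fitted log2 fold change averaged over phases was 0.16 ± 0.090 (SE; 95% interval −0.028 to 0.35; edgeR adjusted p = 0.291), and the single phases gave 0.14 ± 0.16 (early G1), 0.21 ± 0.16 (late G1) and 0.13 ± 0.16 (G2). With the replicate number as a block the 95% interval of the average was 0.019 to 0.30 and the edgeR adjusted p 0.0884. On deposited TPM the average was 0.045 ± 0.055 (limma adjusted p = 0.546), and 5 of 9 pairs were higher with auxin.

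For 7SK the CPM values were 46010, 40754 and 37535 in untreated and 47680, 39169 and 44830 in auxin-treated early G1. They were 44209, 40152 and 38124 without and 51491, 41265 and 41968 with auxin in late G1, and 44210, 37707 and 35649 without and 44582, 35915 and 42491 with auxin in G2. 7 of 9 pairs were higher with auxin, and the groups overlapped in each phase. The averaged log2 fold change was 0.095 ± 0.076 (95% interval −0.065 to 0.26; edgeR adjusted p = 0.470, and 0.153 with the block). The sign of 7SK turned on deposited TPM (−0.049 ± 0.058, limma adjusted p = 0.532), and 4 of 9 pairs were higher with auxin.

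RNase_MRP stood at 32057, 26659 and 37771 CPM in untreated and 26543, 26021 and 35193 CPM in auxin-treated early G1. In late G1 it had 27342, 29116 and 38721 CPM without and 34110, 28248 and 35701 CPM with auxin, and in G2 24046, 23723 and 33968 CPM without and 29113, 22658 and 31498 CPM with auxin. In 2 of 9 pairs the auxin library was the higher one, and the groups overlapped in each phase. The averaged log2 fold change was −0.022 ± 0.11 (95% interval −0.25 to 0.20; edgeR adjusted p = 0.921). Without the 3 untreated libraries numbered 3 it was 0.14 ± 0.092 (edgeR adjusted p = 0.494), with the opposite sign.

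The difference of the auxin effect between phases was tested as well, and none of the 3 RNAs nor any other feature passed (0% of features in each of the 3 differences; for late minus early G1, and for G2 minus either, 221, 222 and 218 features had an unadjusted p under 0.05 in edgeR, and with the replicate number as a block 1, 0 and 0 passed). The fitted differences of the 3 RNAs lay between −0.081 and 0.18 on the log2 scale, the largest being 0.18 ± 0.26 for RNase_MRP, late minus early G1.

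In the fit with no replicate block, differences between untreated phases were also within the spread between libraries. None of the 3 RNAs passed, where 7.02% of all features passed for late minus early G1, 3.6% between G2 and early G1, and 5.04% between G2 and late G1. The members' groups overlapped in CPM in all 3 comparisons, while 23.9%, 21.9% and 20.7% of all features had groups without overlap in the same order. The largest estimates were those of RNase_MRP, which was 0.24 ± 0.19 lower in G2 than in early G1 (log2 fold change −0.24, 95% interval −0.63 to 0.15, edgeR adjusted p = 0.559) and 0.22 ± 0.19 lower than in late G1 (log2 fold change −0.22, edgeR adjusted p = 0.616). The CPM of RNase_MRP was lower in G2 than in early and late G1 in each of replicates 1, 2 and 3, and with the replicate number as a block the SE fell to 0.091 and the edgeR adjusted p to 0.0749 and 0.0997, with 95% intervals of −0.43 to −0.055 and −0.41 to −0.036. AC157822.1 and 7SK differed between phases by −0.080 to 0.042 on the log2 scale, each less than its SE.

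**Figure D3:**
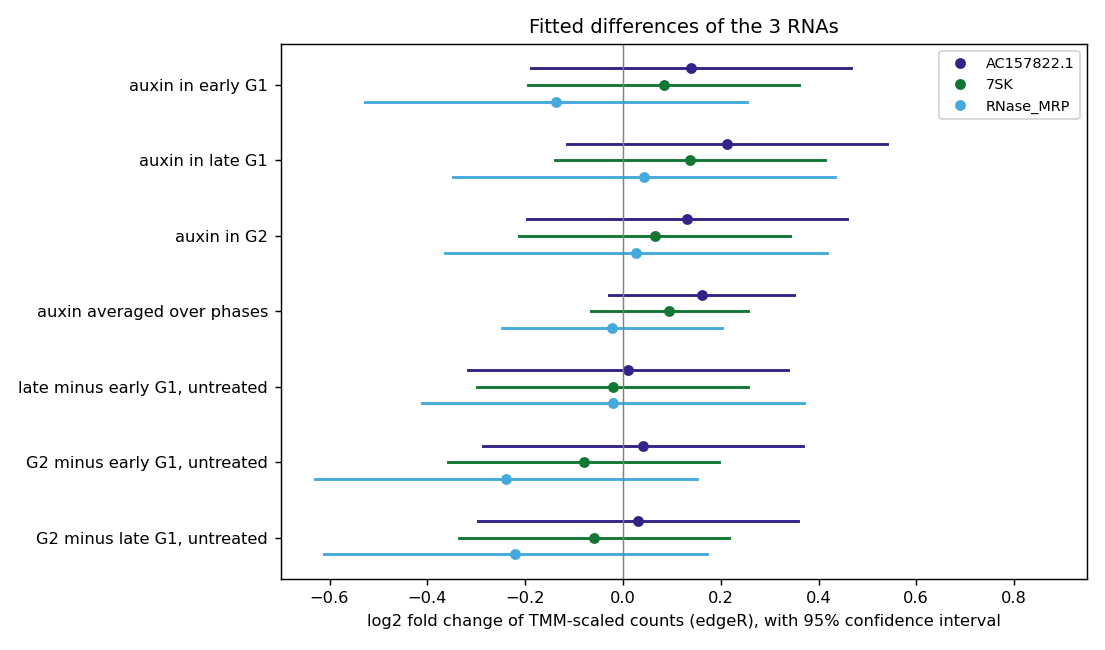
Fitted log2 fold changes (horizontal axis) of AC157822.1, 7SK and RNase_MRP with 95% confidence intervals, for auxin in each phase, auxin averaged over phases and the 3 untreated phase differences. Every interval of this fit, which has no replicate block, includes 0, and the estimates run from −0.24 to 0.21.

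Rpph1, the RNA of RNase P and the nearest relative of RNase_MRP among the RNAs looked up, fell with auxin in G2 and in the average over phases. In G2 it was at 684, 654 and 715 CPM untreated and at 438, 484 and 485 CPM with auxin, without overlap, and the 3 auxin-treated G2 libraries were the lowest of all 18. In early G1 it was at 787, 684 and 635 CPM untreated and 713, 603 and 635 CPM with auxin, and in late G1 at 607, 682 and 649 CPM and 607, 650 and 614 CPM, with overlap in both phases. The log2 fold change was −0.55 ± 0.092 in G2 (edgeR adjusted p = 0.00559) and −0.24 ± 0.053 averaged over phases (edgeR adjusted p = 0.0111), beside −0.11 in early G1 (adjusted p = 0.867 in edgeR) and −0.050 in late G1 (0.883), which did not pass. With the replicate block both calls stood, at edgeR adjusted p of 0.000115 and 0.000715. Both calls held in all 18 fits that left out 1 library.

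On TPM the G2 change of Rpph1 was −0.66 with a limma adjusted p of 0.173, and the average −0.37 with 0.0181. The difference of its auxin effect between G2 and early G1 was −0.43 ± 0.13 and between G2 and late G1 −0.50 ± 0.13, and neither passed (edgeR adjusted p = 1.00 for both). That adjustment runs over 16008 features, of which 222 and 218 had an unadjusted p under 0.05 in edgeR. The adjusted p is thus no measure of Rpph1 alone. With the replicate block the estimates were −0.43 ± 0.11 and −0.49 ± 0.11, which did not pass either. Relative to RNase_MRP, Rpph1 gave 28.5, 27.6 and 21.0 counts per 1000 RNase_MRP counts in untreated G2 and 15.1, 21.4 and 15.4 with auxin, ranges that overlapped. Relative to 7SK it gave 15.5, 17.3 and 20.1 per 1000 without and 9.83, 13.5 and 11.4 with auxin, which did not overlap. Whether Rpph1 and RNase_MRP differed in their response was not tested. Of 2241 entries of small RNA families 16 could be tested. Without the replicate block Rpph1 was the only one of these to pass with auxin, where 0.668% of all features passed in G2 and 5.69% in the average. With the block, 1 of the 16 was also called lower in early G1. That entry was not Rpph1, whose edgeR adjusted p with the block was 0.498 in early G1.

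**Figure D4:**
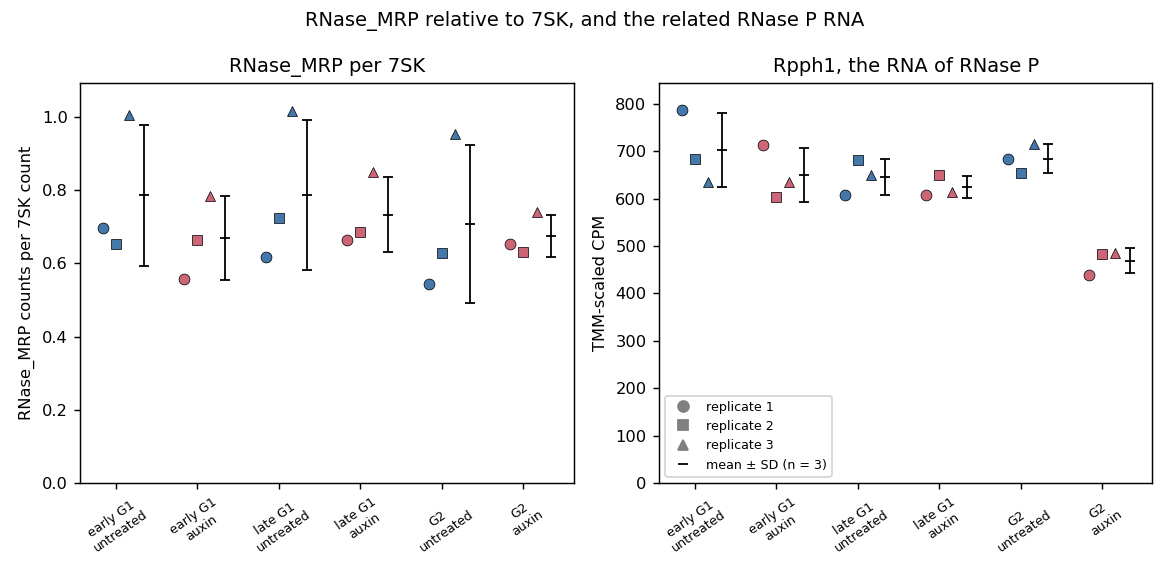
Left, RNase_MRP counts per 7SK count, and right, TMM-scaled CPM of Rpph1, in the 6 groups, with one point per library (marker shape: replicate number; blue: untreated; red: auxin) and the group mean with SD. Replicate 3 has the highest ratio in each group on the left, and the 3 auxin-treated G2 libraries, at 438 to 485 CPM, lie below all others on the right.

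Other genes were looked up by list, among them the proteins that work with 7SK and with RNase_MRP. Without the replicate block none passed with auxin in any phase or in the average: 0 of 16 entries of the 7SK particle and P-TEFb list, 0 of 11 proteins of RNase MRP and RNase P, 0 of 28 subunits and factors of RNA polymerase III, 0 of 8 entries of signal recognition particle proteins and 0 of 8 long nuclear non-coding RNAs. Of all features 0.106% to 1.02% passed in single phases and 5.69% in the average. Their medians of the averaged log2 fold change were −0.0061, 0.053, −0.0050, 0.12 and −0.095, beside 0.0063 over all features. With the replicate block, which called 24.6% of all features in the average, 2 of the 7SK list rose and 4 fell, 3 and 1 of the RNase list, 5 and 3 of the polymerase list, 3 and 0 of the signal recognition particle list, and 0 and 1 of the long RNAs. In single phases the block called 1 of the 7SK list higher in G2 and 1 of the polymerase list higher in late G1. Of all 16008 features it called 314 higher and 248 lower in G2, and 405 and 548 in late G1.

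A few moved between untreated phases. In late against early G1 these were 3 of the 16 entries of the 7SK list, 1 of the 11 RNase proteins and 2 of the 28 of the polymerase list, where 7.02% of all features passed. In late against early G1, Hexim1, the inhibitor that 7SK brings to P-TEFb, fell by 0.34 on the log2 scale (SE 0.10, edgeR adjusted p = 0.0483). Aff4, a scaffold of the super elongation complex that uses P-TEFb, fell by 0.29 (SE 0.078, adjusted p = 0.0295 in edgeR). Hnrnpa2b1, an RNA-binding protein that takes up 7SK freed from P-TEFb, rose by 0.28 (SE 0.079, edgeR adjusted p = 0.0359). The list median was 0.038 beside −0.00068 over all features. Hexim2, which can replace Hexim1, was 0.62 ± 0.16 higher in G2 than in late G1 (edgeR adjusted p = 0.0287), at a mean level of 3.69 CPM.

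Of the RNase MRP and P proteins, Pop1 rose by 0.33 ± 0.096 in late against early G1 (edgeR adjusted p = 0.0426) and Pop7 by 0.37 ± 0.098 in G2 against early G1 (adjusted p = 0.0409 in edgeR). No other protein of the 11 passed in these comparisons, and 3.6% of all features passed in G2 against early G1. Of the polymerase III list, the subunit Polr3k rose by 0.30 ± 0.086 (edgeR adjusted p = 0.0410) and Maf1, the repressor of polymerase III, fell by 0.31 (SE 0.084, edgeR adjusted p = 0.0304) in late against early G1.

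The replicate block called more of each list, and more of all features. In late against early G1, where it called 21.8% of all features, 2 of the 7SK list rose and 4 fell, 5 RNase proteins rose, and 5 of the polymerase list rose and 1 fell. In G2 against early G1 (14.7% of all features) these were 1 and 3, 4 and 0, and 6 and 0, and in G2 against late G1 (15.9%) they were 2 and 0, 0 and 1, and 5 and 2. Of the 8 signal recognition particle entries 0 were called in late against early G1, and 1 rose in each G2 comparison. Of the 8 long RNAs 1 rose and 1 fell in late against early G1, and 1 rose and 2 fell in each G2 comparison.

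None of the 8 unblocked calls held in all 18 fits that left out 1 library. Hexim1 held in 3, Pop1 in 4, Hnrnpa2b1 in 9, Polr3k in 10, Pop7 in 11, Aff4 in 12, and Hexim2 and Maf1 in 14 of 18. Their highest adjusted p in these fits lay between 0.100 (Aff4, without untreated late G1 replicate 3) and 0.192 (Polr3k, without untreated late G1 replicate 1). Among the long nuclear RNAs, Tug1 fell by 0.49 (SE 0.076) in G2 against early G1 (edgeR adjusted p = 0.00109) and by 0.37 (SE 0.076) against late G1 (adjusted p = 0.00669), and both held in all 18 fits. Malat1 was 0.85 ± 0.22 higher in G2 than in late G1 (adjusted p = 0.0342), which held in 14 of 18 and reached 0.149 without untreated late G1 replicate 2. Of the 8 long RNAs, 1 thus passed in G2 against early G1, where 3.6% of all features passed. In G2 against late G1, 1 rose and 1 fell, where 5.04% of all features passed.

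The genes whose log2 CPM ran most like each RNA over the 18 libraries were sought among the 4550 genes whose log2 CPM averaged 5 or more. For AC157822.1 these were Laptm4a (Pearson r = 0.92), the ribosomal protein gene Rpl23 (0.92) and Asnsd1 (0.92). For 7SK they were Fam162a (0.96), Dynlt1b (0.92) and Sohlh2 (0.91). For RNase_MRP they were Scarna6 (0.88), a second entry named SCARNA6 (0.88) and Ttc14 (0.86). The libraries behind these values share groups, replicate numbers and scaling, and the largest of 4550 values is high by selection.

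The auxin comparison over all genes differed between counts and TPM. TMM scaling of the counts hardly depended on them: effective library sizes with and without the 3 RNAs differed by at most 0.000325 on the log2 scale, and DESeq2 size factors by at most 8.9e-05. On deposited TPM, the median log2 difference with auxin over all tested genes was −0.077 in the average over phases, where it was 0.0063 on counts. These 2 medians are unlike measures. The TPM median was taken on log2(TPM + 1), where the added 1 makes differences of genes with low TPM smaller, and the count median on edgeR fold changes. The ratio of TPM to CPM given below, with a far smaller number added and over fewer genes, was lower with auxin by 0.22 on deposited TPM. On this scale limma, on log2(TPM + 1), called 61 features higher (0.381%) and 717 lower (4.48%) in the average, where edgeR on counts called 416 higher (2.6%) and 495 lower (3.09%). The same limma fit on log2(CPM + 1), added after seeing the data, called 421 higher (2.63%) and 469 lower (2.93%).

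Taking the 3 RNAs out of the TPM total did not bring the 2 scales together. The median was then −0.13, and 111 features were called higher (0.694%) and 2250 lower (14.1%). With the replicate block the order turned: 280 were higher (1.75%) and 7263 lower (45.4%) on deposited TPM, and 188 (1.17%) and 3490 (21.8%) without the 3 RNAs. Where the pseudocount kept the weight it has on deposited TPM, the median without the 3 RNAs was −0.071, near the −0.077 with them, and 103 were called higher (0.644%) and 2206 lower (13.8%). When the 1097 other short entries were also taken out in that same way, both chosen after seeing the data, the median was −0.021, and 162 were called higher (1.02%) and 447 lower (2.83%).

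The ratio of TPM to CPM of an ordinary gene, as the median over 7989 genes, describes the 2 scales library by library. It comes from the same TPM and counts as the medians above and is not a separate observation. Its SD over the 18 libraries was 0.19 on the log2 scale for deposited TPM, 0.17 without the 3 RNAs and 0.11 without all short entries. The ratio was lower with auxin by 0.22, 0.21 and 0.089 on these 3 scales, averaged over phases. A difference with auxin thus remained without all short entries. For Sox2 itself the choice of scale turned the direction: in 8 of 9 pairs the auxin library had the higher CPM, but in 2 of 9 the higher deposited TPM (log2 −0.11) and in 3 of 9 the higher TPM without the 3 RNAs (log2 −0.10), and none of these differences passed.

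**Figure D5:**
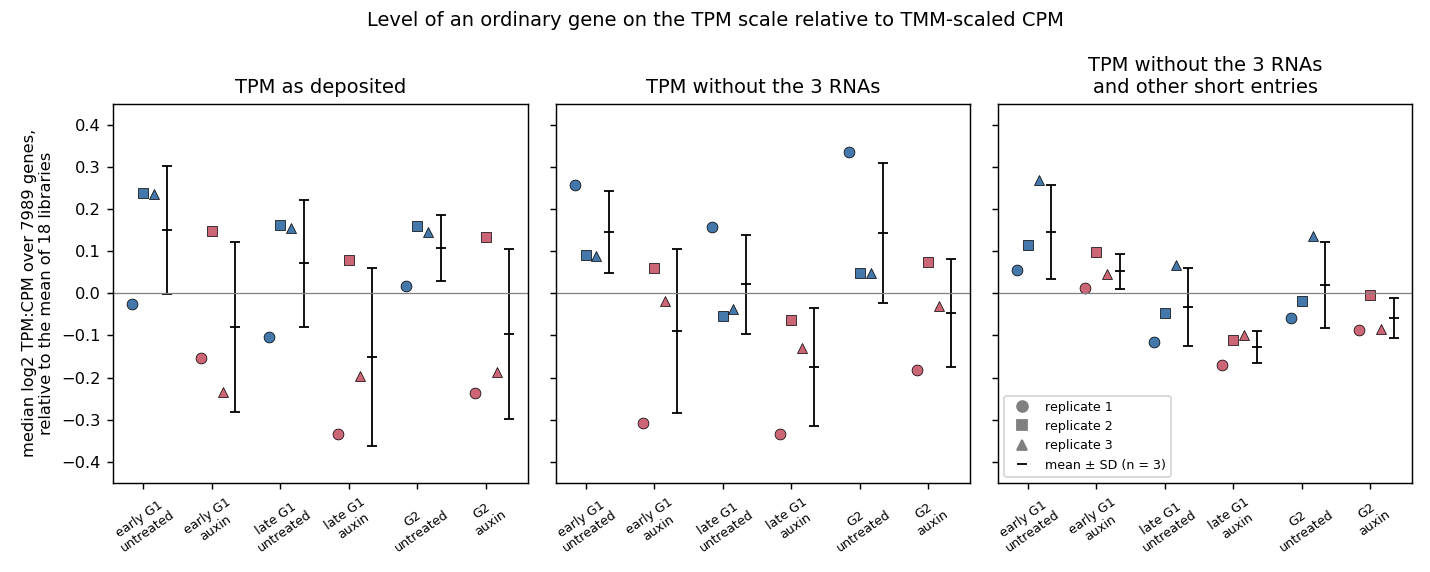
Median log2 ratio of TPM to TMM-scaled CPM over 7989 genes, relative to the mean of the 18 libraries (vertical axis), for TPM as deposited (left), without the 3 RNAs (middle) and without these and other short entries (right), with one point per library and the group mean with SD. The SD over the libraries is 0.19 on the left, 0.17 in the middle and 0.11 on the right.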

How the data were processed

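RNA of 18 libraries was measured by RNA-seq. The authors deposited a table of expected counts, estimated reads per Ensembl entry given as whole numbers, and a table of TPM; the submitters' processing notes name STAR, RSEM and mm9, without versions or roles. Groups and replicate numbers came from the sample titles. 32897 of 37620 Ensembl IDs (87.4%) matched the reference names. Entries with a member symbol were summed, features were filtered with filterByExpr by group (16008 tested) and TMM scaling preceded the test in edgeR 4.0.16 (quasi-likelihood F test, robust, group means of 18 libraries, 12 residual degrees of freedom, biological coefficient of variation 0.14), with Benjamini-Hochberg adjustment and calls at 0.05. The SE is the log2 fold change divided by the square root of F. TPM were tested as log2(TPM + 1) in limma 3.58.1, and DESeq2 1.42.0 served as an alternative. "Well covered entries" average at least 2000 counts and have at least 5 TPM. The named genes were the 3 RNAs, the 7 next entries by counts and by TPM, the 3 genes most like each RNA and list members that passed. The members and lists were chosen with earlier results of these data known.

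Whether replicate numbers pair libraries was checked by the correlation of deviations from group means: every pair exceeded 0.1 in early G1 and late G1 with auxin and between untreated phases (0.22 to 0.50), but not for auxin in G2 (lowest 0.05), so values with the block are given where they change a call, a count of calls by over 1.5 times or an interval's side of 0. On simulated data for auxin in early G1 (16008 genes) 37.8% of 1.5-fold and 56.9% of 2-fold changes were recovered. Depth per library was 24841963 to 37587322 counts. Other settings tried were no TMM, DESeq2, no filter, a filter of 100 counts in every library, a pseudocount of 0.1, the replicate block, the largest entry per symbol, TPM without the members, and fits without single libraries.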

Additional observations from a re-analysis of the deposited data

How the results depend on the processing

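In 870 results of the 3 RNAs under other settings (30 comparisons), 0 had an adjusted p under 0.05, and 84 had the opposite sign, in 21 of the 30 comparisons. The values that follow are the log2 fold changes with the opposite sign, and the cause was not tested. Without TMM, AC157822.1 gave −0.069 (untreated late against early G1) and −0.019 (G2 against early G1), and RNase_MRP −0.036 (auxin in late G1) and −0.046 (auxin in G2). Totals without the 3 RNAs, chosen after seeing the data, gave −0.099 and −0.048 for AC157822.1 and −0.027 for RNase_MRP in G2. With the filter of 100 counts, AC157822.1 gave −0.032 for late against early G1. On TPM, AC157822.1 gave −0.0069 (auxin effect, late against early G1) and −0.0023 (untreated). 7SK gave −0.046 (early G1), −0.044 (late G1), −0.056 (G2) and −0.049 (average) with auxin, and RNase_MRP −0.086 (late G1), −0.013 (G2) and 0.073 (auxin effect, G2 against late G1). On TPM without the 3 RNAs, AC157822.1 gave −0.048 (untreated late against early G1), 7SK −0.050, −0.017, −0.043 and −0.037 with auxin in the same order, 0.0074 (auxin effect, G2 against early G1) and 0.073 (untreated G2 against late G1), and RNase_MRP −0.059 (auxin in late G1) and 0.060 (auxin effect, G2 against late G1). Without the untreated libraries numbered 3, AC157822.1 gave 0.053 (auxin effect, G2 against early G1), −0.020 (untreated late against early G1) and −0.014 (untreated G2 against early G1), and RNase_MRP 0.14 (auxin average) and 0.0068 (auxin effect, G2 against late G1).

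With 1 library left out, estimates of AC157822.1 ran from −0.055 to 0.17 (auxin effect, late against early G1), −0.14 to 0.14 (auxin effect, G2 against early G1) and −0.17 to 0.065 (auxin effect, G2 against late G1), and from −0.084 to 0.14, −0.050 to 0.18 and −0.026 to 0.10 for the untreated differences in the same order. Those of 7SK ran from −0.0028 to 0.16 for auxin in G2, from −0.055 to 0.12, −0.096 to 0.074 and −0.14 to 0.041 for the auxin effect, and from −0.087 to 0.060, −0.17 to 0.0035 and −0.15 to 0.0070 untreated, in that order. Those of RNase_MRP ran from −0.052 to 0.21 (auxin in late G1), −0.073 to 0.22 (G2), −0.071 to 0.043 (average), −0.19 to 0.17 (auxin effect, G2 against late G1) and −0.19 to 0.11 (untreated late against early G1). Most ends of these ranges came from leaving out untreated replicate 1 or 3 of a phase.

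The counts of genes called on TPM depended on single libraries. Deposited TPM gave 32 to 83 higher and 224 (without late G1 auxin replicate 1) to 2957 lower (without G2 auxin replicate 2), with 17 of 18 fits over 1.5 times away from 717, and TPM without the 3 RNAs gave 1005 (without G2 auxin replicate 1) to 3068 lower, 8 of 18 over 1.5 times away from 2250. With the replicate block, 280 were higher and 7263 lower on deposited TPM, and 188 and 3490 without the 3 RNAs. The filter of 100 counts gave 27 and 54 higher, removal of other short entries 447 lower, and CPM in place of TPM 421 higher and 469 lower. The replicate block changed no call of the 3 RNAs, and with it the auxin average on counts had 2064 higher and 1880 lower genes. Of the named list genes, TPM kept only the average of Rpph1, and, without the 3 RNAs in the total, also Malat1. Of the 13 calls, no low-count filter lost 9, all but those of Rpph1 and Tug1. No TMM lost 5 (Hnrnpa2b1, Pop1, Pop7, Polr3k and Malat1, adjusted p 0.0652 to 0.12 in edgeR), also with totals without the 3 RNAs. Leaving out the untreated libraries numbered 3 lost 8, all but those of Rpph1, Tug1 and Malat1. The 3 RNAs had at least 675147 counts in every library, so counting error was small beside the spread between libraries.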
